A study of Homo sapiens with 12 samples.

Results

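The ER membrane complex was examined through its 10 subunits, EMC1, EMC2, EMC3, EMC4, MMGT1, EMC6, EMC7, EMC8, EMC9 and EMC10, which are 10 of the 20345 gene rows in the expression table. EMC6 was chosen by its difference between libraries labelled TEAD4KO and WT libraries in untreated cells, and the other subunits were chosen because they belong to the same complex. RNA had been sequenced from 12 samples of HGC-27, a human gastric cancer cell line, in 4 groups of 3. WT cells, for which no edit is stated, and cells that carry the label of a knockout of the transcription factor TEAD4 (TEAD4KO) were each profiled without treatment and with GLUP, a cyclic glue peptide made to bind TEAD4. Untreated libraries carried the replicate numbers 1, 2 and 3, and libraries with GLUP the numbers 14, 15 and 16. The labels give neither the dose nor the time of GLUP, and they do not say whether the TEAD4KO cells were 1 clone or whether replicates were separate cultures. P-values therefore measure the spread between these libraries, which may be technical.

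The ER membrane complex is a multi-subunit machine of the endoplasmic reticulum (ER) that inserts hydrophobic segments of new proteins into the membrane. It handles tail-anchored proteins and the first membrane-spanning segments of many receptors and transporters, and it works beside the Sec61 channel and the GET/TRC route for tail-anchored proteins. EMC3, a relative of the bacterial insertase YidC, forms the membrane core of the complex with EMC6 and MMGT1, the latter also known as EMC5. EMC4 closes the membrane cavity at its side. EMC1, EMC7 and EMC10 carry domains in the ER lumen. EMC2 is the cytosolic scaffold, and EMC8 and EMC9 are paralogues that take the same place on it.

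Expression is in FPKM, the fragments of a gene relative to its length and to the mapped fragments of the library, so levels of different genes can be compared per length. Sequencing depth is unknown for these values, and no interval that needs it is given. FPKM totals ran from 375361 to 423757, and rows at 0 made up 21.1% to 22.3% of a WT library and 23.7% to 25.5% of a library labelled TEAD4KO. TEAD4KO untreated replicate 1 and TEAD4KO GLUP replicate 16 had the fewest rows at 0 and the lowest FPKM totals among libraries under that label, and results that rest on them are given with and without them. The TEAD4 transcript went against the label, at 22.9 to 25.8 FPKM in WT libraries and 26.0 to 30.1 FPKM in libraries labelled TEAD4KO. Every direction between them rests on the label. Of the markers that the line could be checked by, KRT8 was present at 3.78 to 9.13 FPKM and CDH1 at 2.04 to 3.68 FPKM, whereas KRT18 stayed at or under 0.290 FPKM, EPCAM at or under 0.169 FPKM and KRT19 at or under 0.0459 FPKM. Of the mesenchymal genes VIM was at 1238 to 1704 FPKM, FN1 at 3.85 to 9.15 FPKM and CDH2 at most at 0.149 FPKM. Of the fibroblast genes COL1A1 was at 155 to 304 FPKM, COL1A2 at 4.93 to 9.80 FPKM and PDGFRB at 0.820 to 1.27 FPKM. Markers of leukocytes, endothelium and liver were low or absent, with CD3E listed at 0 in all 12 libraries, PTPRC at most at 0.276 FPKM, CD68 at 0.433 FPKM, VWF at 0.0439 FPKM and ALB at 0.0525 FPKM.

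All 10 subunits were expressed above the limit for testing, a mean of 1 FPKM over the 12 libraries, which 11225 rows passed. Their levels spread from EMC4, at a mean of 58.7 ± 2.07 FPKM (SD, n = 3) in untreated WT cells, to EMC9 at 7.62 ± 1.49 FPKM. EMC4 and the luminal subunit EMC7 (45.5 ± 1.33 FPKM) were the most abundant in every group, and all their libraries lay apart from those of the next subunit. In untreated WT cells EMC8 at 21.1 ± 0.304 FPKM and MMGT1 at 20.5 ± 0.367 FPKM followed, and their libraries overlapped. EMC3 came next at 17.2 ± 0.0649 FPKM, apart from both its neighbours in the order. EMC1 at 15.2 ± 0.721 FPKM, EMC6 at 14.3 ± 1.83 FPKM and EMC2 at 14.2 ± 0.499 FPKM formed a run in which neighbours overlapped. EMC10 at 10.5 ± 1.27 FPKM and EMC9 stood last and overlapped. In libraries labelled TEAD4KO the order differed at 1 place above all, since EMC6 was then next after EMC4 and EMC7, with a mean of 31.4 ± 6.68 FPKM untreated and 29.3 ± 2.82 FPKM with GLUP (SD, n = 3). With GLUP its lowest library (26.4 FPKM) lay above the highest EMC8 library (25.0 FPKM), whereas in untreated cells the EMC6 and EMC8 libraries overlapped.

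**Figure D1:**
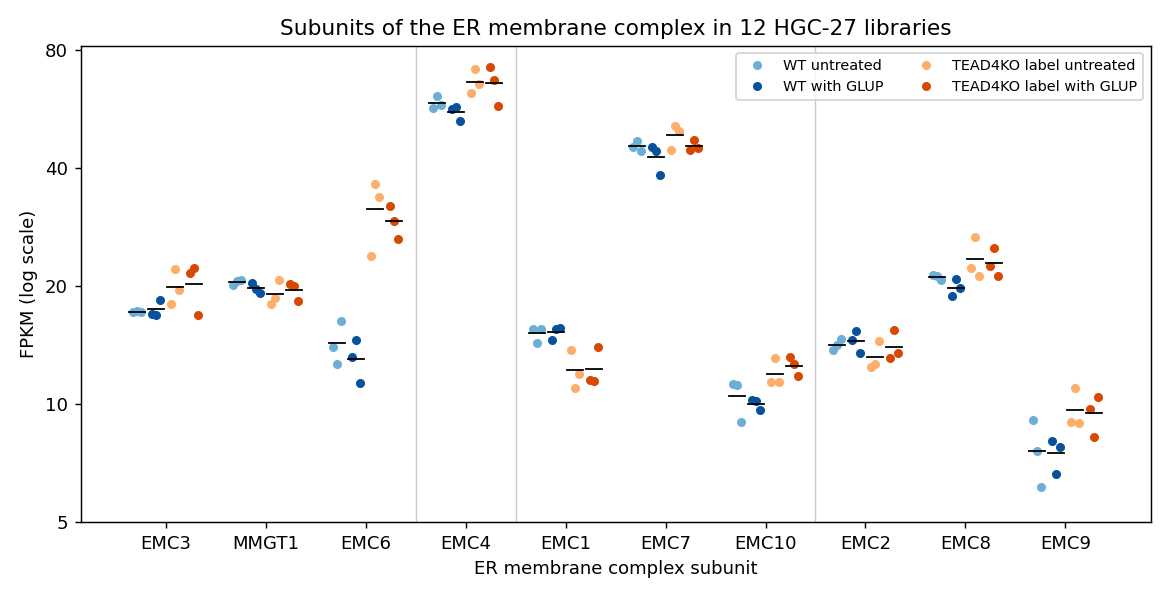
FPKM (log scale) of the 10 subunits in each of 12 libraries, grouped by membrane core, EMC4, luminal and cytosolic subunits. Each point is a library and each bar a group mean of 3. The libraries labelled TEAD4KO lie between 23.8 and 36.5 FPKM for EMC6, above all WT libraries at 11.3 to 16.3 FPKM.

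EMC6 is the smallest gene of the complex (ENSG00000127774, GRCh37 chromosome 17, 3572106 to 3572962, plus strand). Its canonical transcript has 656 bases in 2 exons, and the coding sequence of 330 bases lies wholly in exon 2 (3572441 to 3572770). The readthrough gene P2RX5-TAX1BP3 spans it on the opposite strand, at 0.215 to 1.20 FPKM. Whether the authors counted by strand is not given in the sources used here, so reads of overlapping genes may not be told apart.

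In untreated WT cells EMC6 was at 13.97, 12.7 and 16.3 FPKM, and in WT cells with GLUP at 13.2, 14.6 and 11.3 FPKM. Untreated libraries labelled TEAD4KO had 23.8, 36.5 and 33.8 FPKM of EMC6, and those with GLUP had 32.1, 29.4 and 26.4 FPKM. All 6 libraries under the label lay above all 6 WT libraries, with and without GLUP. EMC10 also lay apart upward, at 9.03 to 11.3 FPKM in WT libraries and 11.4 to 13.2 FPKM under the label. EMC1 lay apart downward, at 14.3 to 15.7 FPKM in WT libraries and 11.0 to 13.96 FPKM under the label. The share of all rows with such a separation was not counted. In bulk RNA, more EMC6 RNA per cell and a larger share of cells that express it cannot be told apart.

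The comparison of the label with WT among GLUP-treated cells uses libraries that had no part in choosing EMC6. The model takes its spread from the untreated libraries too, which did have a part. EMC6 was 2.25 times higher as a ratio of FPKM means. On the log2(FPKM + 1) scale, which understates changes of low genes, EMC6 rose by 1.11 ± 0.14 (SE, 3 libraries in each group), with a limma adjusted p of 0.00127 (Benjamini-Hochberg over 11225 rows), and 3 of 3 libraries were higher. It stood sixth from the top of all rows tested. The call held under all 24 alternatives, with log2 fold changes from 0.94 to 1.19 and limma adjusted p from 0.000102 to 0.0132. Without TEAD4KO GLUP replicate 16 the log2 fold change was 1.18 (limma adjusted p = 0.000694). In a fit of only the groups compared, which leaves the untreated libraries out, it was 1.11 (limma adjusted p = 0.00663).

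EMC6 was the only subunit past an adjusted p of 0.05 in this comparison, 1 of 10 higher against 4.91% of all rows tested and 0 of 10 lower against 0.935%. At an unadjusted p under 0.05 limma gave 6 of 10 subunits and 23.9% of all rows. It was also the only one with a fold over 2, which 0.0535% of rows reached. Non-overlap was more common: 5 of 10 subunits (EMC4, EMC6, EMC8, EMC9 and EMC10) had all 3 libraries labelled TEAD4KO above all 3 WT libraries, against 16.7% of rows, and 1 (EMC1) had all 3 below, against 12.9%. The 9 subunits other than EMC6 had 0.19 as their median log2 fold change, 6 above 0 and 3 below, against a median of -0.0039 over all rows. This count rested on single libraries. Without TEAD4KO GLUP replicate 16, 5 subunits passed (EMC3, EMC4, EMC6 and EMC10 higher, EMC1 lower) while the calls over all rows went from 656 to 1948. Without TEAD4KO untreated replicate 1, which enters only through the shared spread, 2 subunits passed (EMC6 and EMC1) with 1103 calls over all rows. With both left out 5 subunits passed, with 3110 calls over all rows. With the replicate number as a block, 4 subunits passed (EMC4, EMC6 and EMC10 higher, EMC1 lower) and 1064 rows in all. The block was used because the GLUP libraries were treated as paired. It pairs the untreated libraries as well, and these enter through the shared spread.

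Among the membrane core partners of EMC6, EMC3 (ENSG00000125037, chromosome 3, 10004366 to 10052886, minus strand) was at 17.0, 16.9 and 18.5 FPKM in WT cells with GLUP and at 21.7, 22.2 and 16.9 FPKM under the label. The library at 16.9 FPKM was TEAD4KO GLUP replicate 16, and the groups overlapped because of it. The log2 fold change was 0.19 ± 0.10 (SE, limma adjusted p = 0.240) and 0.31 without that library (limma adjusted p = 0.0233). MMGT1 (ENSG00000169446, chromosome X, 135042747 to 135056188, minus strand), the other core subunit, was at 20.4, 19.7 and 19.2 FPKM in WT cells with GLUP and at 20.2, 20.001 and 18.3 FPKM under the label. Its groups overlapped at a log2 difference of -0.018 ± 0.067 (SE, limma adjusted p = 0.895), a value whose sign turned under the length and GC correction. Of the 3 core subunits, EMC6 rose and the differences of EMC3 and MMGT1 did not pass. EMC4 (ENSG00000128463, chromosome 15, 34517214 to 34522357, plus strand) borders the membrane cavity and was found at 56.6, 57.3 and 52.6 FPKM in WT cells and at 72.5, 67.3 and 57.7 FPKM under the label with GLUP. The groups did not overlap, with a log2 difference of 0.24 ± 0.08 (SE, limma adjusted p = 0.0980, or 0.0388 with the replicate block).

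Of the luminal subunits, EMC1 (ENSG00000127463, chromosome 1, 19542154 to 19578046, minus strand) was at 14.6, 15.5 and 15.7 FPKM in WT cells with GLUP and at 11.5, 11.4 and 13.96 FPKM under the label. EMC1, the largest subunit of the complex, was the member with all 3 libraries below WT, at a log2 difference of -0.30 ± 0.09 (SE, limma adjusted p = 0.0741, or 0.0411 with the replicate block). EMC10 (ENSG00000161671, chromosome 19, 50979657 to 50994128, plus strand) had 10.3, 10.2 and 9.64 FPKM in WT cells against 13.2, 12.6 and 11.8 FPKM under the label. Its groups did not overlap either, at 0.30 ± 0.09 (SE, limma adjusted p = 0.0684, or 0.0411 with the replicate block). EMC7 (ENSG00000134153, chromosome 15, 34376218 to 34394063, minus strand) was at 45.3, 44.2 and 38.4 FPKM against 44.5, 47.1 and 44.9 FPKM, and its groups overlapped at 0.095 ± 0.073 (SE, limma adjusted p = 0.450).

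Of the cytosolic subunits, the scaffold EMC2 (ENSG00000104412, chromosome 8) was at 14.6, 15.4 and 13.5 FPKM in WT cells with GLUP and at 13.1, 15.5 and 13.5 FPKM under the label. The groups overlapped at a log2 difference of -0.045 ± 0.082 (SE, limma adjusted p = 0.776). EMC8 (ENSG00000131148, chromosome 16, 85805364 to 85833214, minus strand) was at 18.9, 20.8 and 19.8 FPKM against 22.5, 25.0 and 21.2 FPKM. Its paralogue EMC9 (ENSG00000100908, chromosome 14, 24608168 to 24610800, minus strand) was at 8.05, 6.63 and 7.79 FPKM against 9.73, 8.25 and 10.4 FPKM. Neither pair of groups overlapped and neither difference passed (limma adjusted p = 0.183 for EMC8 and 0.178 for EMC9). The ratio of EMC9 to EMC8 ran from 0.318 to 0.427 in WT cells with GLUP and from 0.330 to 0.492 under the label, so the proportion of the paralogues overlapped between the groups.

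**Figure D2:**
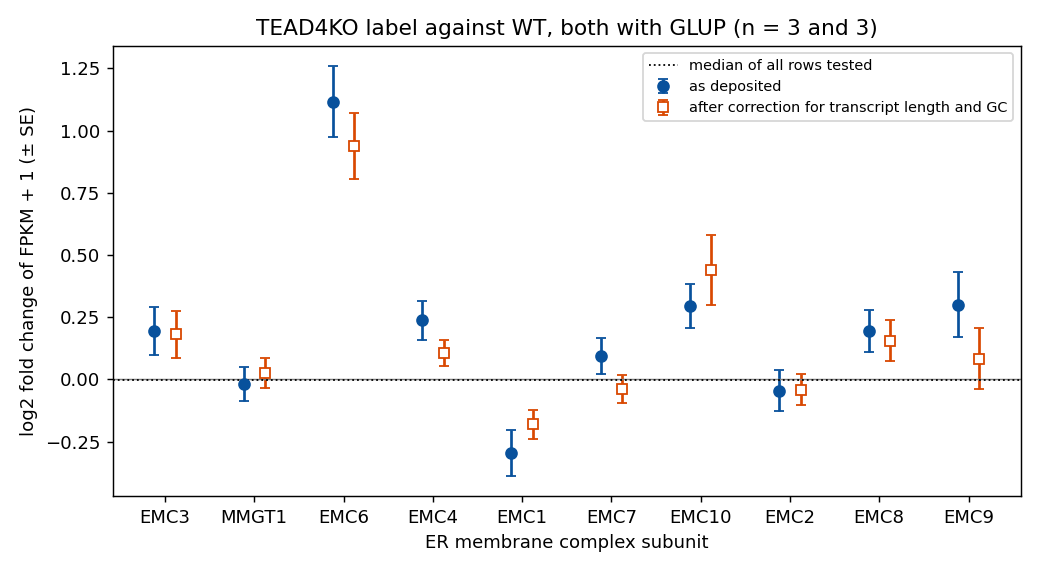
Log2 fold change of FPKM + 1 (± SE, 3 against 3 libraries) of each subunit between the TEAD4KO label and WT, both with GLUP, as deposited (circles) and after a correction for transcript length and GC content (squares). EMC6 stands at 1.11 and 0.94, while the other 9 lie between -0.30 and 0.30 as deposited and between -0.18 and 0.44 after correction.

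The untreated comparison of the label with WT is the one on which EMC6 was selected, and its values are given as a description without a test. EMC6 was 2.20 times higher as a ratio of FPKM means, at 1.07 ± 0.14 on the log2 scale (SE, 3 libraries in each group), and 1.25 without TEAD4KO untreated replicate 1, its lowest library under the label. Counts over the complex in this comparison include EMC6 by its selection, so nothing is read from them. Past an adjusted p of 0.05 over all rows, 4.92% were higher and 0.499% lower, and the complex had 1 (EMC6) and 0 of 10. Without overlap, 18.3% of rows were higher and 7.47% lower, and the complex had 4 (EMC3, EMC4, EMC6 and EMC10) and 1 (EMC1). The 9 other subunits lay between -0.29 (EMC1) and 0.32 (EMC9), with a median of 0.14 against 0.023 over all rows. EMC3 was at 17.2, 17.3 and 17.2 FPKM in WT and at 18.1, 22.2 and 19.5 FPKM under the label. EMC1 was at 15.6, 14.3 and 15.6 FPKM in WT and at 13.8, 11.0 and 11.97 FPKM under the label, all below WT.

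GLUP was compared with no treatment within each genotype. The 9 subunits other than EMC6 were tested, and for none did the difference pass, in WT cells (0 of 9, against 0.00891% of rows), under the TEAD4KO label (0 of 9, against 0.0445%) or in the interaction of both (0 of 9, against 0.00891%). At an unadjusted p under 0.05 the limma counts were also 0, against 3.43%, 6.38% and 2.53% of all rows in the same order. Their log2 fold changes with GLUP lay between -0.096 and 0.027 in WT cells and between -0.089 and 0.081 under the label. EMC6 shares the untreated libraries on which it was selected, so its values stand without a test: the log2 fold change with GLUP was -0.13 ± 0.14 in WT cells and -0.078 ± 0.14 under the label (SE), and its libraries overlapped in both. The difference between these was 0.048 ± 0.20 (SE).

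Because the subunits assemble into 1 complex, the levels were also set against each other within each library. EMC6 made up 5.48% to 7.31% of the summed FPKM of the 10 subunits in WT libraries and 10.1% to 13.3% in libraries labelled TEAD4KO. The sum of the other 9 was 195 to 214 FPKM in WT libraries and 209 to 238 FPKM under the label. The ranges of this sum overlapped where those of EMC6 did not. Taken singly, the ranges of EMC10 and EMC1 did not overlap either, with EMC10 higher and EMC1 lower under the label. The share of all rows with such a separation was not counted. Against its core partner MMGT1, EMC6 stood at a ratio of 0.590 to 0.783 in WT libraries and 1.32 to 1.96 under the label. Against EMC3 it stood at 0.612 to 0.948 in WT libraries and 1.32 to 1.73 under the label. EMC6 was below both core partners in all 6 WT libraries and above both in all 6 libraries labelled TEAD4KO. The untreated libraries among these are those on which EMC6 was selected, so its separation there is no support. With GLUP alone, the ratio to MMGT1 was 0.590 to 0.741 in WT libraries and 1.44 to 1.59 under the label. The ratio to EMC3 was then 0.612 to 0.861 and 1.32 to 1.56, and the EMC6 share of the sum 5.48% to 6.58% and 11.2% to 12.3%. The ratio of EMC3 to MMGT1, which does not involve EMC6, ran from 0.826 to 0.964 in WT libraries and from 0.924 to 1.19 under the label. These are RNA ratios and hold no measure of the proteins. They are also not corrected for the trend with transcript length given below. The canonical transcripts have 656 bases for EMC6, 2353 for EMC3 and 5145 for MMGT1.

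**Figure D3:**
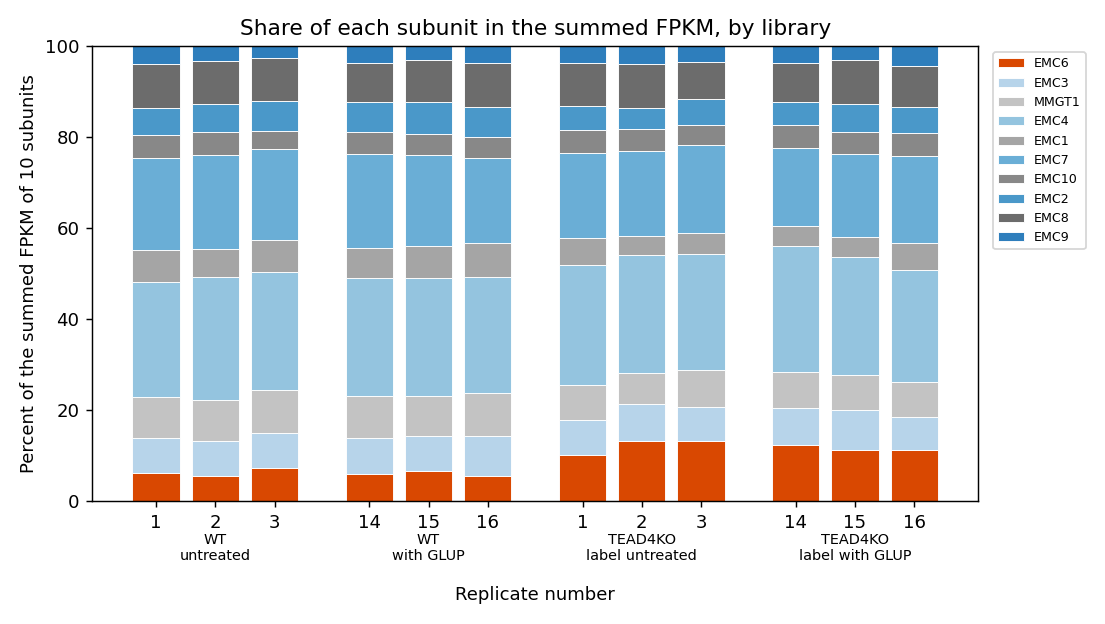
Share of each subunit in the summed FPKM of the 10 subunits (percent, bars to 100), for each of 12 libraries by replicate number. The EMC6 segment at the base is 5.48% to 7.31% in WT libraries and 10.1% to 13.3% in libraries labelled TEAD4KO.

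EMC6 lies head to head with TAX1BP3, a gene for a small PDZ-domain protein (ENSG00000213977, chromosome 17, 3566189 to 3571973, minus strand), and the 2 start sites are 133 bases apart. The stretch between them is shown because both genes begin at its ends. It lies at chr17:3571974-3572105 (GRCh37, plus strand, 132 bases, 76.5% GC) inside the promoter that RefSeq gives EMC6. Capitals mark matches on either strand to the NRF1 motif, searched as GCGCA and GCGC set 1 base apart, and to GGGCGG, the motif of SP and KLF factors.
EMC6-TAX1BP3: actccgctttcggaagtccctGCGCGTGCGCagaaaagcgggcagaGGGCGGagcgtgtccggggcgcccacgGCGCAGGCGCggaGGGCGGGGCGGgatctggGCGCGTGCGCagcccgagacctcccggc
The stretch held 3 matches to the NRF1 motif and 3 to the SP/KLF motif, of which 2 of the latter overlapped each other by 1 base. It held no match to CATTCC (TEAD), CCAAT (NF-Y), CCGGAAG (ETS), TGANTCA (AP-1) or the ER stress element searched. A match describes letters, and binding was not measured in these data.

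TAX1BP3 was at 22.0, 21.9 and 19.2 FPKM in WT cells with GLUP and at 29.8, 29.7 and 28.8 FPKM under the label with GLUP. The log2 difference was 0.47 ± 0.08 (SE, limma adjusted p = 0.00498), with 3 of 3 libraries higher. The call was lost with the replicate block together with the length and GC correction (0.34, limma adjusted p = 0.0538), and over all alternatives the adjusted p ran from 0.000712 to 0.0538. In untreated cells its log2 fold change was 0.24 ± 0.08 (SE, limma adjusted p = 0.0978), and TEAD4KO untreated replicate 1 (23.8 FPKM) lay within the WT range of 21.9 to 23.9 FPKM. EMC6 stood at a ratio to TAX1BP3 of 0.577 to 0.725 in WT libraries and 0.918 to 1.27 under the label. These ranges include the untreated libraries on which EMC6 was selected. With GLUP alone the ratio was 0.590 to 0.666 in WT libraries and 0.918 to 1.08 under the label. Of the other genes within 100 kb of EMC6, SHPK, CTNS, ITGAE and HASPIN were tested between the label and WT among GLUP-treated cells and did not pass (limma adjusted p from 0.297 to 0.899), and 4 more rows, P2RX5-TAX1BP3 among them, were under the limit for testing.

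**Figure D4:**
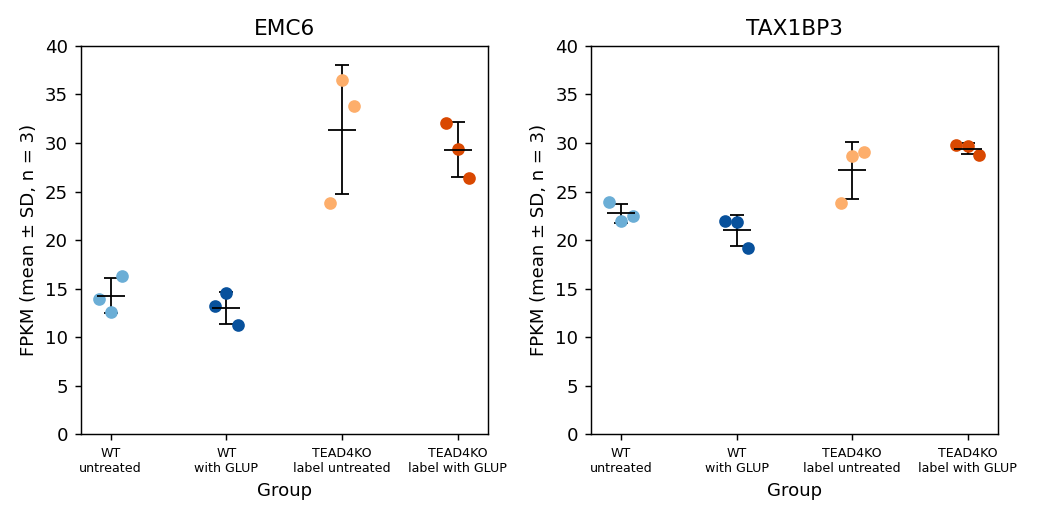
FPKM of EMC6 and of its head-to-head neighbour TAX1BP3 in each library (points), with the mean ± SD of 3 libraries per group. EMC6 goes from 11.3 to 16.3 FPKM in WT libraries to 23.8 to 36.5 FPKM under the TEAD4KO label, and TAX1BP3 from 19.2 to 23.9 FPKM to 23.8 to 29.8 FPKM.

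Other subunits also start within 1000 bases of the start of a gene on the other strand. Among such partners were MRTO4 for EMC1, EIF3E for EMC2, TAX1BP3 for EMC6, PGBD4 for EMC7, COX4I1 for EMC8 and GARIN5A for EMC10. Of these, GARIN5A was under the limit for testing, and TAX1BP3 alone passed between the label and WT among GLUP-treated cells. COX4I1, a subunit of cytochrome c oxidase, had a log2 difference of 0.32 ± 0.10 (SE, limma adjusted p = 0.0646). EMC8 overlaps COX4I1, EMC9 overlaps PSME1 and EMC10 overlaps GARIN5A, each on the opposite strand.

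RefSeq promoters (GRCh38.p14, 250 bases before to 50 after the start) were matched for 8 of the 10 subunits, all but EMC2 and MMGT1. The NRF1 motif was found in 2 of these (EMC6 and EMC10), where 5.78% of 35116 promoters hold it. The SP/KLF motif was found in 6 of 8 (45.0% of all promoters), the NF-Y motif in 5 of 8 (34.6%), the ETS motif in 3 of 8 (10.3%) and the AP-1 motif in 1 of 8 (7.71%). The TEAD motif was in 0 of 8 (14% of all promoters) and the ER stress element, CCAAT and CCACG set 9 bases apart, in 0 of 8 (0.0769%). EMC6 and EMC10, the subunits with an NRF1 match, had log2 fold changes of 1.11 and 0.30 between the label and WT among GLUP-treated cells, of which the first passed. Matched subunits without this motif lay between -0.30 (EMC1) and 0.30 (EMC9). Whether the motif bears on these values was not tested.

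The differences between the label and WT moved with transcript length across all genes. When tested rows were split by canonical transcript length into 5 classes of like size, the shortest class (78 to 1807 bases, with EMC4, EMC6, EMC7 and EMC9) had a median log2 fold change of 0.14 among GLUP-treated cells and 14.98% passed as higher, against -0.12 and 0.451% in the longest class. Spearman's rho of length and log2 fold change was -0.478 across 11077 genes of the same libraries, which are not independent. Within the shortest class, 1 row of 2216 exceeded EMC6. Once the trend of every library with length and GC content was taken out, EMC6 stayed at 0.94 ± 0.13 on the log2 scale (SE, limma adjusted p = 0.00591) and stood eighth of all rows. EMC4 went to 0.11 ± 0.05, EMC9 to 0.083 ± 0.12, EMC7 to -0.038 ± 0.056 and EMC1 to -0.18 ± 0.06 (SE), none of which passed, while EMC10 went to 0.44 ± 0.14 (SE, limma adjusted p = 0.0966, or 0.0496 and past the threshold with the replicate block). The correction uses the canonical transcript of the reference, which for EMC10 has 9439 bases and need not be the one that the authors' tools measured.

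Likeness to EMC6 was measured as Pearson's r of log2(FPKM + 1) over the 12 libraries, as a description, since the libraries fall into the 2 genotypes and share their totals. The rows most like EMC6 were FAM32A (r = 0.984), PODXL2 (0.982), C7orf50 (0.980), MED8 (0.980) and TPGS1 (0.974), and none is a subunit of the complex. TPGS1, a subunit of the tubulin polyglutamylase complex, was higher under the label than in WT among GLUP-treated cells by 0.99 ± 0.10 on the log2 scale (SE, limma adjusted p = 0.000427), close in size to EMC6. Among the subunits EMC4 was nearest at r = 0.848, rank 613 of 11224 rows, and EMC10 followed at 0.773. MMGT1 (-0.264) and EMC2 (-0.279) had weak negative values, and EMC1 lay near the opposite end at -0.898. Within the 6 WT libraries r was between -0.725 (EMC3) and 0.654 (EMC2), and within the 6 libraries labelled TEAD4KO between -0.867 (EMC1) and 0.788 (EMC7).

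The other genes of membrane insertion, translocation, glycosylation and quality control in the ER were followed in 8 lists, of which 89 of 91 genes were tested. Among GLUP-treated cells, 8 were higher under the label than in WT (8.99%) and 2 lower (2.25%), and the log2 fold changes had 0.052 as their median, against 4.91% and 0.935% and a median of -0.0039 over all rows. The count went down to 1 without WT GLUP replicate 16, where calls over all rows went from 656 to 201. It went up to 27 without TEAD4KO GLUP replicate 16 (1948 calls over all rows) and to 34 with both doubted libraries left out (3110). Leaving out any 1 WT library, or TEAD4KO GLUP replicate 14 or 15, gave 1 to 6, with 201 to 489 calls over all rows. In untreated cells 4 genes (SEC61B, SSR4, TMEM147 and SDF2L1) were past the threshold and higher under the label and 0 lower, a share of 4.49% near the 4.92% of all rows. Neither GLUP comparison within a genotype called any of the 89 with limma, and at an unadjusted p under 0.05 there were 2 in WT cells and 1 under the label, against 3.43% and 6.38% of all rows.

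Of the Sec61 channel and its partner the TRAP complex, 2 of 11 were higher under the label and 1 lower among GLUP-treated cells. SEC61B, the small subunit of the channel, was at 128 ± 5.52 FPKM in WT and 179 ± 19.3 FPKM under the label (SD, n = 3), which is 0.48 ± 0.11 on the log2 scale (SE, limma adjusted p = 0.0186). SSR4 of the TRAP complex rose by 0.43 ± 0.11 (SE, limma adjusted p = 0.0333), and SEC61A2, a paralogue of the channel subunit SEC61A1, fell by 0.46 (limma adjusted p = 0.0359). The multipass translocon, which joins Sec61 for proteins with many membrane-spanning segments, had 3 of 9 higher and 1 lower. Those higher were TMEM147 (0.46 ± 0.09), RAB5IF (0.29 ± 0.07) and TMCO1 (0.26 ± 0.06), with limma adjusted p of 0.00931, 0.0363 and 0.0359. TMCO1 is a member of the same insertase family as EMC3. NOMO1 fell by 0.31 (limma adjusted p = 0.0343), and NOMO3 did not pass at -0.35 (limma adjusted p = 0.151). The NOMO genes are near-identical copies, so how reads were split among them is uncertain. TMCO1 and NOMO1, with XBP1 below, were named after their values were seen, because they complete the counts.

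The remaining routes into the membrane gave no limma calls, with 4 of 7 GET/TRC genes and 2 of 8 genes of the signal recognition particle at an unadjusted p under 0.05, where 23.9% of all rows were. In the GET/TRC route GET4 was at 0.26, SGTA at 0.22 and BAG6 at -0.16, and in the signal recognition particle and its receptor SRPRB was at 0.21, SRP14 at 0.17 and SRPRA at -0.054. None of the 11 oligosaccharyltransferase genes passed, with OST4 at 0.25 and STT3A at -0.093. None of the 5 signal peptidase genes passed (SEC11C at 0.20, SPCS3 at -0.0031), nor any of the 18 genes of ER-associated degradation (RNF5 at 0.24, EDEM3 at -0.27). At an unadjusted p under 0.05 these lists had 2, 1 and 2 genes, each a smaller share than that of all rows. Among the ER chaperones and stress genes 3 of 20 rose. They were SDF2L1, a co-chaperone partner of the ER Hsp70 (0.68 ± 0.12, limma adjusted p = 0.00646), DDIT3, which encodes the stress factor CHOP (0.49 ± 0.13, limma adjusted p = 0.0416), and XBP1, a transcription factor of the unfolded protein response (0.38 ± 0.09, limma adjusted p = 0.0349). ERN1, whose nuclease domain cuts XBP1 RNA, was at -0.26 ± 0.13 and did not pass (limma adjusted p = 0.229). Of the 8 genes that rose, SEC61B, SSR4, TMEM147, RAB5IF, SDF2L1, DDIT3 and XBP1 have canonical transcripts of 564 to 1791 bases and belong to the shortest length class. After the length and GC correction 3 genes of the lists were higher and 3 lower, against 2.58% and 1.21% of all rows. When each of the 12 libraries was left out in turn, SDF2L1 kept its call in all fits (limma adjusted p up to 0.0398), while TMEM147 lost it in 2 (up to 0.0570) and SEC61B in 4 (up to 0.0946). SSR4 and SEC61A2 lost it in 6, XBP1, NOMO1 and DDIT3 in 7, and RAB5IF and TMCO1 in 8. The fits without WT GLUP replicate 16 and without TEAD4KO GLUP replicate 14 were among these for each gene that lost its call.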

How the data were processed

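RNA of 12 HGC-27 samples in 4 groups of 3 was sequenced. The authors analysed the reads on the Majorbio cloud platform and deposited FPKM values, 1 row per Ensembl gene, with no pooling. The processing notes name HISAT2, Cufflinks, RSEM and hg19, and versions, strand setting and the tool that gave the FPKM values are not given in the sources used here.

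The 11225 rows that averaged 1 FPKM or more were put on the log2(FPKM + 1) scale. The tool was limma 3.58.1 under R 4.3.3 (lmFit, eBayes with trend, two-sided), with 1 model of 4 groups over all samples and Benjamini-Hochberg adjustment over all rows in each of 5 comparisons. A call was an adjusted p under 0.05, and a stricter call also needed a fold over 2. No permutation test was run, since 3 against 3 libraries allow no p under 0.1. The code was tested on simulated data.

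Depth is unknown, and the precision of each value is the spread between replicates. GENCODE release 44 on GRCh37 gave positions, exons, transcript lengths and GC (96.5% of rows), and RefSeq gave promoters. Named were all 10 subunits, per list up to 2 genes with the largest and 1 with the smallest log2 fold change between the label and WT among GLUP-treated cells, genes within 100 kb of EMC6, the 5 rows most like it and TEAD4. Members and lists were chosen with earlier results of these data known. Replicate numbers come from the titles. Deviations from group means correlated between genotypes at 0.106, 0.152 and 0.336 for numbers 14, 15 and 16, which were treated as paired. For numbers 1, 2 and 3 they correlated at -0.0569, 0.203 and -0.0149, which gave no ground for pairing. Differently numbered GLUP libraries reached 0.134, so this evidence is weak. The replicate block takes in every number, so it pairs the untreated libraries as well. Alternatives were another pseudocount, filter, scaling, trend, weighting, sample set and block, a correction by splines with 5 degrees of freedom for length and GC content, and leaving out each library. A fit without both doubted libraries and the replicate block for the interaction were added after seeing the data.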

Additional observations from a re-analysis of the deposited data

How the results depend on the processing

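The excess of EMC6 under the TEAD4KO label over WT among GLUP-treated cells kept its direction and passed under all 24 alternatives. Its untreated difference, which has no test, stayed between 0.86 and 1.25 on the log2 scale and moved beyond the spread between replicates only with the length and GC correction and with that correction and the replicate block (0.86 in both). Leaving out 1 library at a time gave 1.02 to 1.19 among GLUP-treated and 0.95 to 1.25 among untreated cells.

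The number of subunits past the threshold between the label and WT among GLUP-treated cells was 1 as reported, with 656 calls over all rows. It became 2 with median-ratio scaling (600 calls over all rows), quantile normalization (809) and the replicate block with length and GC correction (461). It was 4 with the replicate block (1064), 5 with array weights (2487) and 5 with both doubted libraries left out (3110). Fits without 1 library gave 1 to 5 subunits, with 201 to 1948 calls over all rows. In untreated cells the number, which holds EMC6 by its selection and is no test of it, was 1, with 608 calls over all rows. It went to 2 with median-ratio scaling (453 calls over all rows), quantile normalization (603), array weights (694) and the replicate block (849). It went to 4 with both doubted libraries left out (2228) and stayed at 1 to 2 without single libraries (119 to 1189). The cause was not tested. The counts for GLUP within each genotype and for the interaction stayed at 0 in all alternatives. For the interaction these include the replicate block, alone and with the length and GC correction, added after seeing the data. No paired analysis was possible for GLUP within a genotype because untreated and GLUP libraries share no replicate number. The count over the 8 lists was 10 as reported, beside 656 calls over all rows. It became 2 without a filter (444 calls over all rows), 6 with median-ratio scaling (600) and 6 with the length and GC correction (426). It was 6 in a fit of only the groups compared (461) and 4 without the eBayes trend (518). With array weights it was 27 (2487) and with both doubted libraries left out 34 (3110). Where a fold over 2 was also required it was 0 (6). Fits without 1 library gave 1 to 27, with 201 to 1948 calls over all rows.

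Signs turned only for genes that did not pass. MMGT1 went to 0.027 with the length and GC correction, alone and with the replicate block, to 0.0021 with array weights and to 0.025 with both doubted libraries left out, and EMC7 went to -0.038 under both corrections. SPCS3 went to 0.025 under both corrections, 0.0060 with array weights and 0.030 with both doubted libraries left out, SPCS1 to -0.066 with quantile normalization, and SELENOS to -0.00024 under both corrections. Fits without 1 library spanned 0 for MMGT1 (-0.043 to 0.025), SPCS1 (-0.078 to 0.14), SPCS3 (-0.036 to 0.030) and STT3A (-0.20 to 0.084). No scaling moved the median of all rows by over 0.1. Depth is unknown, so what it limits could not be measured.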
